A study of Rattus norvegicus with 6 samples.

Results

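The respiratory chain is the set of protein complexes in the inner mitochondrial membrane that passes electrons from NADH and succinate to oxygen, together with the ATP synthase that uses the resulting proton gradient. Its genes were collected from a gene table of rat sensory tissue by name (subunits of complexes I to V) or by a locus on the mitochondrial chromosome (MT), without use of measured values. This gave 100 of 22536 genes: 87 encoded in the nucleus and 13 encoded on the mitochondrial genome. The groups were 3 controls and 3 animals labelled PDN, for painful diabetic neuropathy, a nerve pain that follows diabetes. All 6 animals were male. The tissue is labelled sensory neuron, and the title of the series names the dorsal root ganglion. The sources used here give no strain, no age and no account of how diabetes was brought about. Total RNA went into strand-specific lncRNA libraries. The design text counts 3 animals per group, so a library was taken as an animal, and p-values measure the spread between these libraries.

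Complex I (NADH dehydrogenase), complex III (the cytochrome bc1 complex), complex IV (cytochrome c oxidase) and complex V (ATP synthase) are built from subunits of both genomes, whereas complex II (succinate dehydrogenase) is wholly nuclear. The mitochondrial genome is transcribed from both strands as long precursors that are cut into single mRNAs, and ND6 is the only mRNA read from the light strand. Sensory neurons support very long axons, and mitochondrial function in dorsal root ganglia has been a recurrent subject of work on diabetic neuropathy.

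The FPKM values (fragments scaled to transcript length and library size, so a level per length) came without a stated depth. If the constant that links the deposited tables in each library is read as its number of fragments, an assumption that could not be checked, depth was 51858000 to 62788000 fragments per library, with the lowest value in control 3. All 15 sensory neuron markers were detected, with a summed level of 9365 to 10899 FPKM per library. Markers of Schwann cells (3287 to 4057 FPKM) and of satellite glia (367 to 458 FPKM) were also present, so the tissue was not neurons alone. Macrophage markers summed to 33.0 to 46.4 FPKM in controls and 22.9 to 33.2 in PDN, and red blood cell markers to 157 to 233 and 74.5 to 178. Skeletal muscle RNA was uneven: its 10 markers found by name summed to 602 FPKM in control 2, to 190 in PDN 3 and to 35.5 in PDN 1. In each of the other 3 libraries that sum was 2.22 to 2.5 FPKM. In bulk tissue, fewer cells of a type and less RNA per cell cannot be told apart.

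The first comparison asked whether genes of the respiratory chain differ between PDN and control tissue. Of the 100 genes, 90 (80 nuclear and 10 mitochondrial) reached 1 FPKM in 3 or more libraries and were tested with limma on log2(FPKM + 1). No gene of either origin passed an adjusted p of 0.05 in limma, and 0 of the 13282 genes tested in all did so (0% higher and 0% lower in PDN). At an unadjusted p under 0.05 in limma there were 4 nuclear genes (Cox7a1, Uqcr10, Ndufa11 and Ndufa4l2) and 1 mitochondrial gene (COX2). That is 5% of the nuclear genes, against 4.72% of all genes tested. By direction these were 3 nuclear genes and 1 mitochondrial gene higher in PDN, where 1.83% of all genes tested were, and 1 nuclear gene lower, where 2.89% were. The median log2 fold change, PDN minus control, was -0.02 for the 80 nuclear genes, with 37 estimates higher and 43 lower. Over all genes tested it was also -0.02, with 43.4% of estimates higher. The 3 PDN values lay wholly above or below the 3 control values in 5 nuclear genes, or 6.25%, against 9.93% of all genes tested. PDN was the higher group in 3 of these (3.69% of all genes tested) and the lower in 2 (6.24%). No mitochondrial gene separated the groups.

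**Figure D1:**
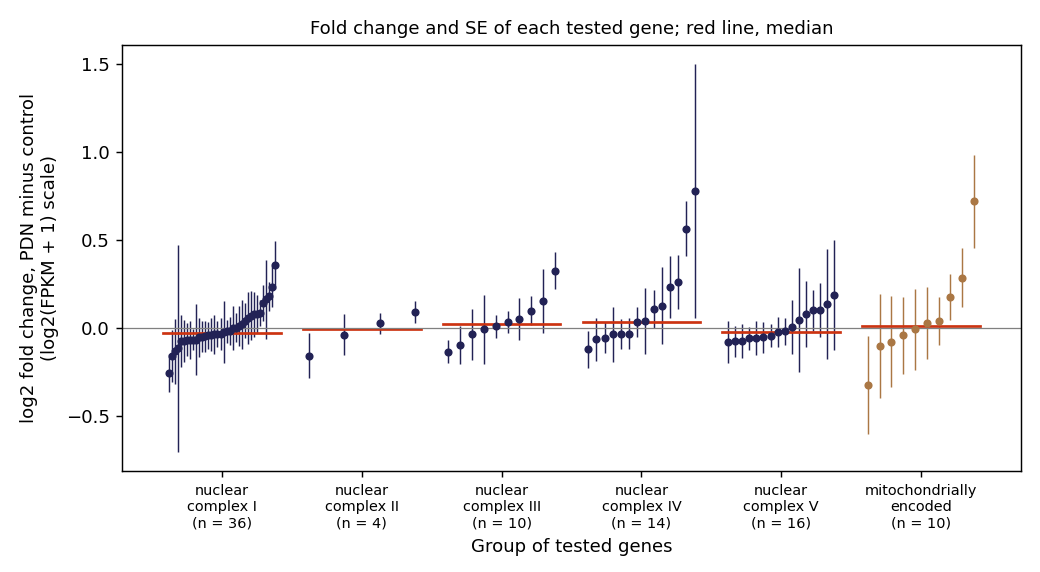
Log2 fold change (PDN minus control, log2(FPKM + 1) scale) of each tested gene, with its SE as the bar. Nuclear genes are grouped into complexes I to V by name, beside the mitochondrially encoded genes. Red lines are medians, which run from -0.0294 (complex I) to 0.0347 (complex IV), and the point at 0.78 in complex IV is Cox7c.

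The mitochondrial genes held both very high and very low levels. COX1, whose protein is the catalytic subunit of complex IV, was listed at 4991, 3999 and 3365 FPKM in controls 1 to 3 and at 5743, 4795 and 4406 in PDN 1 to 3. It had the highest mean level of all genes tested. The COX1 row alone held 65.6% to 69.0% of the summed mitochondrial FPKM. COX3, ATP6 and ATP8, which encode further subunits of complexes IV and V, were at 0.352 to 0.538, 0.0926 to 0.113 and 0.0682 to 0.0835 FPKM. All 3 stood under 1 FPKM in every library and were not tested.

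The loci printed in the table bear on these levels. The COX1 row was given as MT 5323 to 9382, a stretch of 4059 bp that wholly contains the loci of COX2 (7006 to 7689), ATP8 (7758 to 7961), ATP6 (7919 to 8599) and COX3 (8599 to 9382). The ND6 row was given as MT 5010 to 14130, a stretch of 9120 bp that wholly contains the loci of 9 other genes. ND1, ND2 and CYTB had loci that overlapped no other row. Levels of COX1 and of the genes inside its locus can therefore not be told apart by these rows. ND6 lies on the other strand, and whether the counting used strand is not stated. The file gives no genome build and no exon structure.

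**Figure D2:**
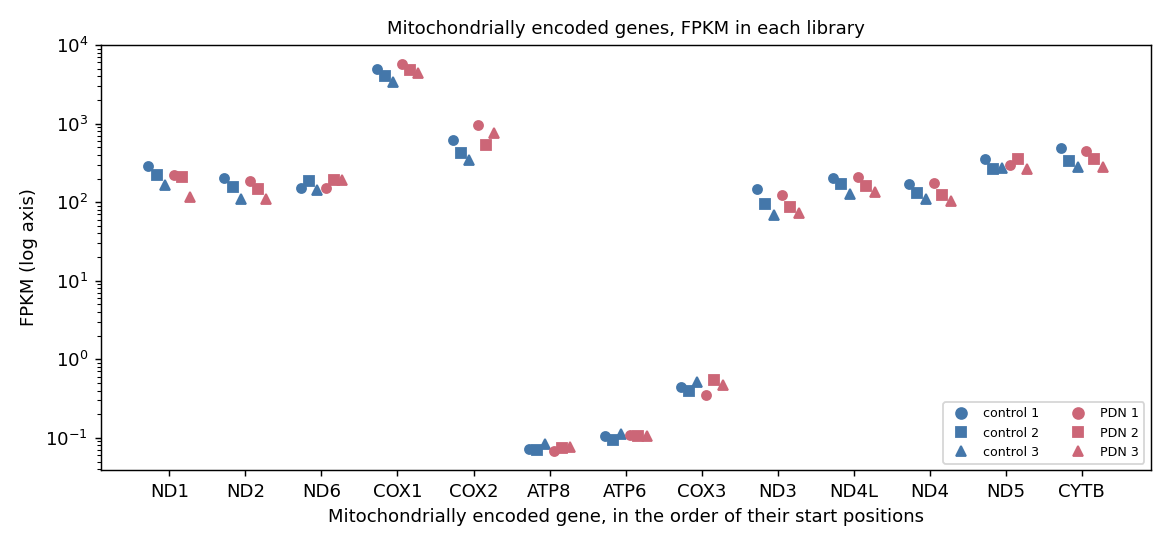
FPKM (log axis) of the 13 mitochondrially encoded genes in each library, in the order of their start positions, with blue symbols for controls and red symbols for PDN. COX1 lies between 3365 and 5743 FPKM, and ATP8, ATP6 and COX3 lie below 1 FPKM in all 6 libraries.

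COX2, which carries the copper site that takes electrons from cytochrome c, was at 612, 421 and 344 FPKM in controls 1 to 3. In PDN 1 to 3 it was at 966, 533 and 768 FPKM. PDN 2 lay below control 1, so the groups overlapped. The estimate was a log2 fold change of 0.72 ± 0.26 (SE; 95% interval 0.099 to 1.34), an unadjusted p of 0.0285 and an adjusted p of 0.999 in limma. COX1 had a log2 fold change of 0.28 ± 0.17 (SE; limma adjusted p = 0.999), and its groups overlapped too. The COX1 estimate was 0.15 without control 3, 0.18 without PDN 1 and 0.43 without control 1.

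The 7 ND genes encode core membrane subunits of complex I. ND1 was at 293, 221 and 166 FPKM in controls and at 220, 209 and 118 in PDN, a log2 fold change of -0.33 ± 0.28 (SE). This estimate was -0.04 without PDN 3, -0.12 without control 1 and -0.53 without control 3. ND2 (157 ± 46.2 FPKM in controls and 147 ± 40.0 in PDN), ND3 (104 ± 41.3 and 94.2 ± 25.9), ND4 (138 ± 31.6 and 134 ± 36.0), ND4L (166 ± 37.6 and 169 ± 38.4) and ND5 (297 ± 46.6 and 305 ± 41.5) differed by less than their SD (n = 3 per group). ND6 was at 150, 185 and 141 FPKM in controls and at 153, 194 and 191 in PDN. Its groups overlapped, with control 1 among its lower values and PDN 3 among its higher. Control 1 was instead the highest library for ND1, ND2, ND3 and ND5, and PDN 3 the lowest for ND1, ND2, ND4 and ND5. The 7 ND genes summed to 1247 ± 264 FPKM in controls and 1211 ± 190 in PDN.

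CYTB, the mitochondrial subunit of complex III, was at 488, 338 and 280 FPKM in controls and at 449, 356 and 283 in PDN, with a log2 fold change of -0.01 ± 0.23 (SE). Its sign turned with median-of-ratios and upper-quartile scaling. Over the 10 tested mitochondrial genes the median log2 fold change was 0.01, with 5 estimates higher and 5 lower. That median was 0.17 without control 1 and 0.13 without PDN 3, but -0.17 without control 3, -0.16 without PDN 1, -0.04 without control 2 and -0.01 without PDN 2.

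Complex I takes electrons from NADH, and 36 of the 37 nuclear genes assigned to it by name were tested. These include Ndufa4 and Ndufa4l2, described further below. The median log2 fold change of these 36 genes was -0.03, with 14 estimates higher and 22 lower. The core subunits that hold the flavin and the iron-sulphur clusters had like levels in both groups: Ndufv1 was at 68.5 ± 3.79 FPKM in controls and 67.8 ± 5.60 in PDN, Ndufv2 at 90.0 ± 11.9 and 95 ± 13.4, and Ndufs1 at 80.4 ± 5.72 and 78.0 ± 4.83 (SD, n = 3 per group). Ndufs3 (46.8 ± 2.80 and 45.6 ± 4.91 FPKM), Ndufs7 (36.7 ± 5.02 and 40.3 ± 1.34) and Ndufs8 (48.6 ± 6.43 and 51.2 ± 4.03) also differed by less than the larger SD. The highest nuclear complex I gene was Ndufb8, a membrane-arm subunit, at 95.6 to 129 FPKM.

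Ndufa11, a membrane subunit at the joint of complex I with complex III, was at 31.4, 24.2 and 20.8 FPKM in controls and at 33.8, 31.9 and 31.5 in PDN. The groups did not overlap, but control 1 lay just below PDN 3. The log2 estimate was 0.36 ± 0.14 (SE), with an unadjusted p of 0.0337 and an adjusted p of 0.999 in limma. Leaving out control 3 gave 0.23. Ndufb7 (57.5 ± 2.98 FPKM in controls and 65.3 ± 5.81 in PDN) and Ndufa2 (30.9 ± 4.62 and 36.3 ± 2.99) had the next smallest p among higher estimates of complex I. The lowest row was Ndufa10l1, at 0.00396 to 0.0127 FPKM. Ndufa10, with 93.3 ± 2.03 FPKM in controls and 89.0 ± 4.19 in PDN, was the fifth by p among lower estimates of the nuclear genes.

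Ndufa4 is named for complex I, and was counted with it here, but is known as a subunit of complex IV. It was at 75.9 ± 4.28 FPKM in controls and 74.7 ± 1.96 in PDN (SD, n = 3 per group). Its paralog Ndufa4l2, a target of hypoxia signalling, was at 1.77, 1.31 and 1.65 FPKM in controls and at 1.23, 1.07 and 1.15 in PDN. All 3 PDN values lay below all 3 control values. The log2 estimate was -0.26 ± 0.11 (SE; 95% interval -0.513 to -0.00291), an unadjusted p of 0.048 and an adjusted p of 0.999 in limma. With a pseudocount of 0.1 in place of 1 the estimate was -0.42.

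All 4 genes of complex II were tested, with 2 estimates higher and 2 lower, and their median log2 fold change was -0.01. Sdha, its flavoprotein, was at 80.8, 79.7 and 77.0 FPKM in controls and at 77.8, 84.4 and 79.7 in PDN, a log2 fold change of 0.03 with a 95% interval of -0.115 to 0.167. Sdhb, the iron-sulphur subunit, was at 57.2 ± 1.84 FPKM in controls and 61.0 ± 2.85 in PDN (SD, n = 3 per group). The membrane anchors Sdhc (59.1 ± 11.3 and 52.2 ± 2.68 FPKM) and Sdhd (59.4 ± 7.91 and 57.6 ± 6.15) were highest in control 2, at 71.7 and 67.8 FPKM. The summed level of the 4 genes was 255 ± 18.5 FPKM in controls and 251 ± 14.4 in PDN.

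Complex III passes electrons from ubiquinol to cytochrome c. All 10 of its nuclear genes were tested, with 6 estimates higher and 4 lower, and their median log2 fold change was 0.02. Its cytochrome c1 gene Cyc1 was at 62.2 ± 3.72 FPKM in controls and 63.6 ± 1.14 in PDN, the core gene Uqcrc1 at 108 ± 5.69 and 108 ± 4.52, and the Rieske iron-sulphur gene Uqcrfs1 at 90.8 ± 10.02 and 84.8 ± 9.02 (SD, n = 3 per group). These 3 differed by less than the SD of controls. The highest level belonged to Uqcrh, the hinge protein, at 165 ± 5.65 and 177 ± 17.2 FPKM. The other core gene, Uqcrc2, was at 86.4, 97.2 and 93.9 FPKM in controls and at 82.3, 85.8 and 83.5 in PDN. Its groups did not overlap, with a log2 fold change of -0.14 ± 0.07 (SE) and an adjusted p of 0.999 in limma. Uqcr10, a small subunit that packs against cytochrome c1, went the other way, at 30.7, 28.7 and 25.1 FPKM in controls and 34.4, 40.3 and 32.2 in PDN. Its groups did not overlap either, with a log2 fold change of 0.32 ± 0.11 (SE), an unadjusted p of 0.0176 and an adjusted p of 0.999 in limma.

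Every row was counted as a gene in the counts and medians, so the 87 nuclear genes carry 85 distinct names. Uqcrb occurred as 2 rows. The row on chromosome 7 (71264514 to 71269869, build not given) was at 13.9 to 20.8 FPKM, and a row on chromosome 1 with a locus of only 474 bp was at 19.9 to 36.5 FPKM. Rows of 1 name may hold near-identical copies that share fragments, so the split between them is uncertain. The same holds for Cox6b1, with 31.0 to 59.6 FPKM for the row on chromosome 1 and 10.05 to 16.4 FPKM for a 260 bp locus on chromosome 2.

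Complex IV reduces oxygen to water, and 14 of its 20 nuclear genes were tested. The median log2 fold change was 0.03, with 8 estimates higher and 6 lower. Its main regulatory subunit gene Cox4i1 was at 239 ± 30.5 FPKM in controls and 257 ± 21.2 in PDN, Cox5a at 129 ± 10.7 and 124 ± 9.92, and Cox5b at 61.9 ± 16.4 and 62.4 ± 8.12 (SD, n = 3 per group). Their differences were smaller than the SD. Cox4i2, the isoform linked to low oxygen, was far lower, at 0.977, 1.97 and 1.43 FPKM in controls and at 2.36, 1.68 and 1.55 in PDN, with overlapping groups. Cox7b had a log2 fold change of -0.12 ± 0.10 (SE), from 166 ± 18.4 to 153 ± 14.6 FPKM. That estimate was -0.04 without control 2, -0.05 without PDN 1, -0.19 without control 3 and -0.08 with array weights. Cox7a2l, a paralog that helps join complexes III and IV, was at 161 ± 14.4 and 157 ± 11.4 FPKM.

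Several subunits of complex IV have a heart and muscle form beside a form used in most tissues, and the 2 forms differed widely in level. The common forms Cox6a1 (83.4 to 132 FPKM), Cox7a2 (141 to 192) and Cox8a (189 to 221) were abundant in all 6 libraries. The muscle form Cox6a2 was listed at 0, 3.40 and 0.0422 FPKM in controls and at 0.205, 0 and 1.42 in PDN. The muscle form Cox8b was at 0.413, 2.26 and 0 FPKM in controls and at 0.994, 0.324 and 0.970 in PDN. Both were highest in control 2, the library with the highest muscle markers, where Acta1, the actin of skeletal muscle, stood at 193 FPKM and Ckm at 97.5. Cox6a2 was next highest in PDN 3 and PDN 1, the libraries with the next highest muscle markers. Neither gene passed the filter. The testis forms were low or at 0: Cox6b2 was at 0.169 to 0.656 FPKM, Cox7b2 was listed at 0 in 4 libraries, and Cox8c and the pseudogene Cox6c-ps1 were listed at 0 in all 6.

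Cox7a1 is the heart and muscle form of subunit VIIa (chromosome 1, 91070423 to 91094786, build not given). It was at 4.75, 3.98 and 6.24 FPKM in controls 1 to 3. In PDN 1 to 3 it was at 7.51, 6.80 and 9.06 FPKM, all above the controls. Control 2, with the highest muscle markers, was the lowest of the 6 libraries, and PDN 3, with the next highest, was the highest. The log2 fold change of 0.56 ± 0.16 (SE), with a 95% interval of 0.197 to 0.929, had the smallest p of the 90 tested genes. The unadjusted p was 0.00803 and the adjusted p was 0.942 in limma, so the difference did not pass the threshold. Leaving out each library in turn gave fold changes of 0.44 to 0.71. With both control 2 and PDN 3 left out, where muscle markers were highest, it was 0.34. The part of muscle RNA in the Cox7a1 values was not tested. A limit on the Cox7a1 FPKM values, seen from a second deposited table, is given with Cox7c below. Cox7a1 is also known from brown fat. Of 5 brown adipocyte markers, 4 were below 1 FPKM in each library, among them the defining gene Ucp1, at or below 0.0322. The other marker, Cidea, was at 3.69, 3.70 and 4.65 FPKM in controls and at 5.14, 5.62 and 4.62 in PDN. The sum of the 5 was 4.03 to 5.14 FPKM in controls and 5.20 to 6.12 in PDN, so it did not overlap between the groups. Cidea made up most of this sum, and its own groups overlapped. Adipoq (0.502 ± 0.227 FPKM in controls and 0.350 ± 0.136 in PDN) and Fabp4 (0.127 ± 0.221 and 0.0347 ± 0.0302) had lower means in PDN, and Plin1 (0.0261 ± 0.00679 and 0.0839 ± 0.0150) a higher one. The part of the brown adipocyte markers in the Cox7a1 values was not tested.

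**Figure D3:**
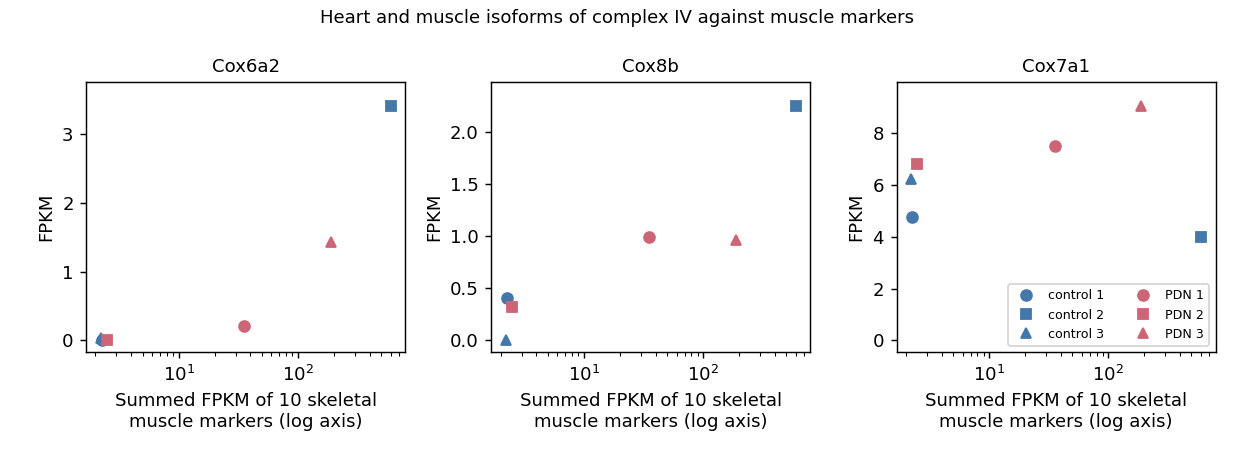
FPKM of the muscle isoforms Cox6a2, Cox8b and Cox7a1 (y axes) against the summed FPKM of 10 skeletal muscle markers (log x axis), with 1 symbol per library. Cox6a2 and Cox8b peak in control 2, at 3.40 and 2.26 FPKM, whereas Cox7a1 is lowest there, at 3.98 FPKM, and highest in PDN 3, at 9.06 FPKM.

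The largest estimate among the nuclear genes belonged to Cox7c, a small subunit of complex IV, and came from a single library. It was at 18.5, 15.5 and 12.5 FPKM in controls and at 105, 14.8 and 12.1 in PDN. The log2 fold change of 0.78 ± 0.72 (SE; limma adjusted p = 0.999) became -0.18 without PDN 1, 1.19 without PDN 2, 1.33 without PDN 3 and 0.51 with array weights. The second deposited table, of whole numbers, did not show this peak: Cox7c was at 5114, 5475 and 4133 in controls and at 4918, 5297 and 4432 in PDN. With each library of that table scaled to the same total, the log2 fold change was 0.01. The ratio of the 2 tables, with the constant of each library, gives a length that links them. It need not be the transcript length used for FPKM. For Cox7c it was 768 bp in PDN 1 and 4653 to 6706 bp in the other 5 libraries, on a locus of 7768 bp. For 72 of the 80 tested nuclear genes this length varied by less than 1.1 times over the libraries, and for 2 (Cox7c and Atp5pf) it varied by more than 2 times. Cox7a1 was not among the 72, with a length of 14990 to 18744 bp on a locus of 24363 bp. Its whole numbers, 5277, 4654 and 4852 in controls and 8531, 6033 and 7470 in PDN, did not overlap either. The 2 tables are linked, so this is no separate check. Among the mitochondrial genes, COX1 had a length of 2006 to 2014 bp on a locus of 4059 bp. The other tested mitochondrial genes had lengths close to those of their loci.

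**Figure D4:**
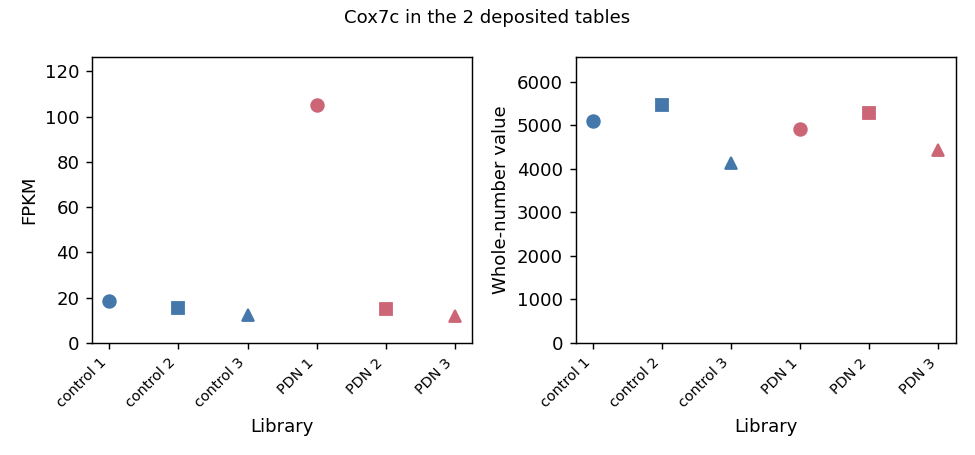
Cox7c in each library in the FPKM table (left) and in the deposited whole-number table (right, a score with no stated unit). PDN 1 stands at 105 FPKM on the left but at 4918 on the right, within the range of 4133 to 5475 of the other libraries.

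Ndufa1, a complex I subunit on the X chromosome, also ranged widely, but in both tables. It was at 33.0, 14.03 and 12.7 FPKM in controls and at 23.9, 30.7 and 5.97 in PDN, and in the whole-number table at 15559, 6985 and 5209 against 11550, 14151 and 2540. The length that links the 2 tables was 7772 to 7969 bp for Ndufa1, on a locus of 7973 bp. For this gene the tables therefore follow each other, and the second is no separate check. Control 1 and PDN 2 were high and PDN 3 was low, so the spread lay within the groups. Its 95% interval for the log2 fold change ran from -1.50 to 1.26.

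Complex V makes ATP, and all 16 of its nuclear genes were tested. Atp5f1b, the catalytic beta subunit, had the highest level of the nuclear genes, at 645, 691 and 651 FPKM in controls and 606, 660 and 694 in PDN. The alpha subunit gene Atp5f1a was at 283 ± 25.7 FPKM in controls and 269 ± 23.1 in PDN (SD, n = 3 per group). Both differed by less than the SD. The 3 genes that encode the same c subunit of the rotor ring, Atp5mc3 (232 ± 11.2 and 222 ± 7.13 FPKM), Atp5mc1 (117 ± 15.8 and 111 ± 12.5) and Atp5mc2 (45.04 ± 4.51 and 44.1 ± 1.70), kept the same order of level in both groups. The median log2 fold change of complex V was -0.02, with 7 estimates higher and 9 lower. Atp5pf had the lowest level of complex V, at 3.62 to 9.77 FPKM.

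The spread between libraries differed by origin. The whole range of the 6 libraries lay within a factor of 1.5 for 56 of 80 nuclear genes (70%) and 2 of 10 mitochondrial genes (20%), against 75.8% of all genes tested. The median SD within groups on the log2 scale was 0.16 for nuclear genes, 0.36 for mitochondrial genes and 0.12 for all genes tested. Single libraries stood high or low for many genes at once. Control 3 was the lowest library for 39 of the 80 nuclear genes (48.8%), against 16.1% of all genes tested, and for 6 of the 10 mitochondrial genes. PDN 1 was the lowest for 29 nuclear genes (36.3%), against 27.8% of all genes tested, and for 0 mitochondrial genes. Control 1 was highest and control 3 lowest for 22 nuclear genes (27.5%, against 4.70% of all genes tested), with a median ratio of 1.58 between these 2 libraries. This set held 7 genes of complex I, 4 of complex III, 4 of complex IV, 7 of complex V and none of complex II.

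Atp5me, the e subunit of ATP synthase, was at 33.0, 22.2 and 12.0 FPKM in controls and at 27.6, 23.4 and 20.8 in PDN, a ratio of 2.74 between control 1 and control 3. Atp5if1, the inhibitor of ATP synthase, was at 75.3, 47.7 and 32.1 FPKM in controls and at 63.0, 50.3 and 40.0 in PDN. In both genes the controls spread over a wider range than the PDN libraries, which lay between them. Among mitochondrial genes ND3 and CYTB had the same highest and lowest library.

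A second set of 18 nuclear genes was highest in control 2 and lowest in PDN 1 (22.5%, against 11.1% of all genes tested), with a median ratio of 1.32. It held Sdhc and Sdhd of complex II, Uqcrc2 and Uqcrfs1 of complex III, Cox7a2, Cox7a2l and Cox7b of complex IV, Atp5f1a of complex V and 10 others, and 0 mitochondrial genes. Control 2 also had the highest muscle markers (602 FPKM) and the highest Schwann cell and satellite glia sums (4057 and 458 FPKM). The part of those cells and of depth in either set was not tested. The sets were formed from the values themselves and are a description.

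**Figure D5:**
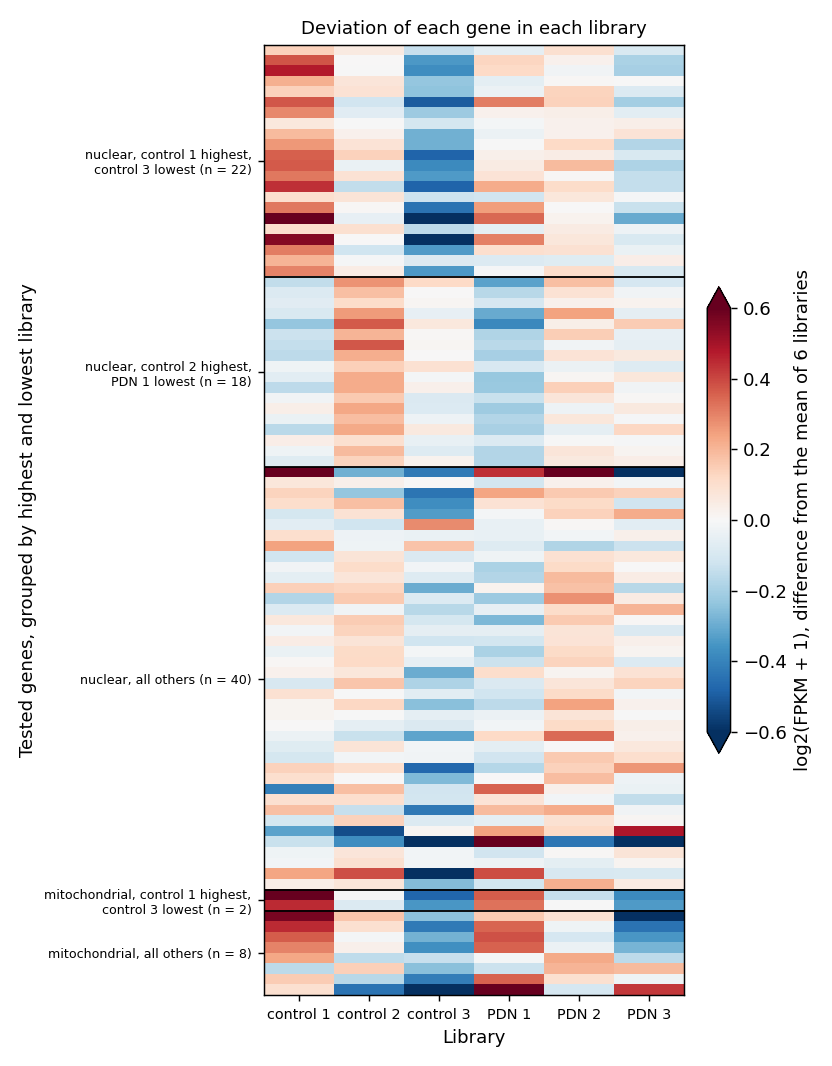
Deviation of each tested gene (rows) from its mean over 6 libraries, on the log2(FPKM + 1) scale, in each library (columns), with colours capped at 0.6 in either direction. The upper 22 nuclear genes are highest in control 1 and lowest in control 3, the next 18 are highest in control 2 and lowest in PDN 1, and the mitochondrial genes are at the bottom.

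Summed over rows, the 2 origins gave totals of similar size only with the COX1 row included. That row, whose locus contains 4 other genes, held 65.6% to 69.0% of the mitochondrial sum. The 13 mitochondrial genes summed to 7611, 5985 and 4983 FPKM in controls and to 8525, 6954 and 6456 in PDN, or 1.48% to 2.51% of all FPKM. The 87 nuclear genes summed to 6924, 7195 and 6249 FPKM in controls and to 6470, 7079 and 6728 in PDN, or 1.85% to 2.06%. The mitochondrial sum was more variable than the nuclear sum, and its groups overlapped. The ratio of mitochondrial to nuclear FPKM was 1.099, 0.832 and 0.797 in controls and 1.32, 0.982 and 0.960 in PDN. Control 1 lay above PDN 2 and PDN 3, so the groups of this ratio overlapped as well. Without the COX1 row the mitochondrial sum was 2075 ± 507 FPKM in controls and 2330 ± 395 in PDN (SD, n = 3 per group). The nuclear sum was 6790 ± 487 and 6759 ± 306 FPKM, so the ratio above rests largely on the COX1 row.

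Genes around the chain were read from the same fit. Of 55 assembly factors and cytochrome c genes listed, 51 were found by name and 50 were tested, with 0 past the adjusted threshold in limma. Among the 50, 15 estimates were higher (30%, against 43.4% of all genes tested) and 35 lower. Their median log2 fold change was -0.05, against -0.02 over all genes tested. The assembly factor gene Ndufaf2 of complex I had the smallest p, at 1.01, 0.945 and 2.03 FPKM in controls and 2.22, 2.03 and 1.97 in PDN, with overlapping groups and an adjusted p of 0.999 in limma. Ecsit, another complex I assembly gene, was at 17.3 ± 0.230 FPKM in controls and 15.7 ± 0.585 in PDN, and Coa7, of complex IV assembly, at 2.30 ± 0.0703 and 1.91 ± 0.178 (SD, n = 3 per group; limma adjusted p = 0.999 for both). In 4 of the 50 genes (8%) all PDN values lay below the controls, against 6.24% of all genes tested. Cycs, the somatic cytochrome c that carries electrons from complex III to IV, was at 93.7 ± 8.46 and 92.4 ± 7.34 FPKM.

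All 19 listed genes of mitochondrial transcription and replication and their nuclear regulators were tested, with 0 past the adjusted threshold in limma, 10 estimates higher, 9 lower and a median of 0.00. Tfam, which packages mitochondrial DNA and helps start its transcription, was at 8.86 ± 0.927 FPKM in controls and 8.38 ± 0.237 in PDN (SD, n = 3 per group). Nrf1, a nuclear activator of respiratory chain genes, was at 3.34, 5.80 and 4.19 FPKM in controls and at 5.69, 6.75 and 4.43 in PDN, with overlapping groups. The polymerase gene Polrmt (5.14 ± 0.148 and 5.60 ± 0.588 FPKM) and Mterf2 (4.25 ± 0.718 and 3.59 ± 0.458) had the next smallest p, with an adjusted p of 0.999 in limma for each of these 4 genes. Ppargc1a, the coactivator that drives mitochondrial biogenesis, was at 5.72 ± 0.777 and 6.03 ± 0.220 FPKM.

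Many promoters of nuclear respiratory chain genes are known to bind NRF1, ETS factors such as GABP, and YY1. Promoter sequences from RefSeq (build GRCr8, 250 bases before to 50 after the gene start) matched 72 of the 85 distinct nuclear gene names. The NRF1 letters, GCGCA and GCGC with any 1 base between them, were in 16.7% of these promoters and in 4.25% of all 33469 promoters, on either strand. The ETS letters CCGGAAG were in 27.8% against 8.75%, and the YY1 letters AAGATGGC in 20.8% against 3.17%. At least 1 of these motifs was in 39 of the 72 promoters (54.2%), against 14.6% of all. The median GC content was 56% in the member promoters and 51.7% in all promoters, and these shares are a description and no sign of binding. The ETS and YY1 motifs can overlap in the letters AAG, and each was counted on its own.

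The 4 promoters below are shown for genes on which the results turned: Cox7a1, with the smallest p, beside its common paralog Cox7a2; Ndufa11, with the smallest p in complex I; and Atp5me, with the widest ratio between control 1 and control 3. Capitals mark every match to the 3 motifs on either strand.
Cox7a1, chr1:94568966-94569265, + strand: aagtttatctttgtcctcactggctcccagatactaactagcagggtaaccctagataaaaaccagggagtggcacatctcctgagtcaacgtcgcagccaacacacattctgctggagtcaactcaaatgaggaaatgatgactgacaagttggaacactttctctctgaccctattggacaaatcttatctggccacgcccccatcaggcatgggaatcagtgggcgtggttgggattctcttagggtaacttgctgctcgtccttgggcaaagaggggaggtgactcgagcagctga
Cox7a2, chr8:89601100-89601399, - strand: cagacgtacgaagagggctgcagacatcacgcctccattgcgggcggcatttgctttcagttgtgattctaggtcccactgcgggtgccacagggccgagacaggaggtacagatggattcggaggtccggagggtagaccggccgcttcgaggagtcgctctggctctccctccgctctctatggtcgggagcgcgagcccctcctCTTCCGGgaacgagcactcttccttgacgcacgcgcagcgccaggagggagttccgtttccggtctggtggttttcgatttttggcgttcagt
Ndufa11, chr9:1637364-1637663, + strand: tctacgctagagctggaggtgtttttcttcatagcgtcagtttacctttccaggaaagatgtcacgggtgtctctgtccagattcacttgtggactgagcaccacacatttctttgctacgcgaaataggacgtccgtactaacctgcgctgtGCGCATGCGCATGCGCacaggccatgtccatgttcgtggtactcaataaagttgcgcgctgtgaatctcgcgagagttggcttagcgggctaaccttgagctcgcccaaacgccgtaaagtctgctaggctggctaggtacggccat
Atp5me, chr14:1464610-1464909, + strand: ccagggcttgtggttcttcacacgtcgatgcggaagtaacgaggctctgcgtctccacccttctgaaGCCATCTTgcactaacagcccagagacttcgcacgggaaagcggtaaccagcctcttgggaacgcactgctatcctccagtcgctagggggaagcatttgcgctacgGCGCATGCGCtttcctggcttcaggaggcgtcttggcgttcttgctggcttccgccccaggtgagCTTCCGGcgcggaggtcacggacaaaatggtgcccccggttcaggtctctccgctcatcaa
The Cox7a1 window held 0 matches, and that of Cox7a2 held 1 ETS match. The Ndufa11 window held 2 overlapping NRF1 matches, and that of Atp5me held 1 match of each motif. The capitals are letter matches only.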

How the data were processed

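RNA-seq of 3 control and 3 PDN rats was analysed from 2 tables deposited by the authors, for which the sources used here name no aligner, quantifier, annotation or build. The deposited FPKM table was the main source. The other deposited table is of whole numbers and carries a name that speaks of read counts. The values of this deposited table, whose making the authors' sources do not state, were treated as a score: among values over 1000, 54.7% to 55.1% equalled FPKM times the locus length times a constant per library, within 0.001. Genes that reached 1 FPKM in 3 or more libraries entered a limma (3.58.1, R 4.3.3) fit of log2(FPKM + 1), with group as the only term, an intensity trend and Benjamini-Hochberg adjustment over 13282 genes. Fold changes on this scale understate low genes. What its remaining values are was not established, so the planned count model was not run. Depth per gene is unknown, so no counting interval is given. The code was tested on simulated data.

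Named genes were all mitochondrial genes, core subunits, tissue isoforms, the highest and lowest of each complex, the 5 smallest p in each direction and the 3 smallest p of each list. Cox7c, Ndufa1, Atp5me, Atp5if1, Cycs, Tfam and Ppargc1a were chosen after their values were seen. The genes, lists, settings and tests were chosen with earlier results of these data known. The values of 1 core subunit gene are not reported here. Columns were matched to libraries by name. There were 17 alternative settings: a pseudocount of 0.1, no filter, a filter at 5 FPKM, scaling by median of ratios, by upper quartile and to the non-mitochondrial total, robust empirical Bayes, array weights, a replicate block, each of 6 libraries left out, both muscle-rich libraries left out, and the whole-number table scaled to equal library totals.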

Additional observations from a re-analysis of the deposited data

How the results depend on the processing

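Under the 17 alternative settings, 0 nuclear and 0 mitochondrially encoded genes, 0 assembly genes and 0 transcription genes passed an adjusted p of 0.05 in limma. Over all genes the count was 1 lower without the filter and 1 lower with robust empirical Bayes, and 5 higher and 4 lower without control 2 and PDN 3, the muscle-rich libraries. Leaving out 1 library at a time gave 0 to 3 higher and 0 to 4 lower: 3 higher without control 1, 2 higher without control 3, 1 higher and 3 lower without PDN 1, and 2 higher and 4 lower without PDN 3. The median log2 fold change of the nuclear genes was -0.019 and ran from -0.0811 to 0.0331 over these fits, and that of nuclear complex IV from -0.0751 to 0.0958. The nuclear median was 0.0016 with median-of-ratios scaling, 0.0042 with upper-quartile scaling, 0.0152 with array weights and 0.0423 without the muscle-rich libraries. The cause was not tested. With a pseudocount of 0.1, the stricter filter, scaling to the non-mitochondrial total and the whole-number table, the count over all genes was 0 higher and 0 lower, and the nuclear median was -0.0193, -0.019, -0.0121 and -0.009. The count model was not run, as the whole-number table was not established to hold counts.

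CYTB became 0.0114 with median-of-ratios and 0.0140 with upper-quartile scaling. Without the muscle-rich libraries ND2 became 0.1501, ND3 0.0318, ND4 0.1036, CYTB 0.1131 and Ndufa1 0.3789. With each library left out, fold changes ran from -0.3124 to 0.1253 for ND2, -0.5315 to -0.0416 for ND1, -0.3679 to 0.191 for ND3, -0.2474 to 0.1261 for ND4, -0.1486 to 0.1834 for ND4L, -0.0626 to 0.1661 for ND5, -0.1867 to 0.2116 for CYTB, -0.538 to 0.5532 for Ndufa1 and -0.1846 to 1.3263 for Cox7c. Deviations of same-numbered libraries from their group means correlated at 0.171, -0.1202 and -0.0865. The largest correlation, 0.2689, joined control 2 and PDN 3, the muscle-rich libraries. With 3 libraries per group, these values cannot decide whether same-numbered animals were paired. With a replicate block the count of calls stayed at 0 higher and 0 lower.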
